A study of Mus musculus with 9 samples.

Results

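The transcription factor p53, 20 of its targets or partners and 15 further genes of the apoptotic machinery were followed in cultured mouse islets, 36 genes of the 22048 counted. The genes were a fixed list of symbols, each matched to its Ensembl gene identifier, and all 36 were found. Pancreatic islets of ICR mice, described as wild-type, had been kept for 3 days in medium with 11.8, 20 or 35 mM glucose, and RNA was sequenced from 3 samples per concentration. The study asked how very high glucose changes the expression program of islet cells. The lowest concentration was that of the ordinary RPMI medium, all cultures contained fetal bovine serum, and the labels gave no age or sex. The treatment text of the labels named 25 mM for the highest concentration, whereas every sample title named 35 mM, which is used here. Islets came from 9 mice, but the labels did not say whether each sample was 1 mouse, so the p-values reflect only how much these samples differ among themselves, possibly for technical reasons.

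The protein p53 is held low in unstressed cells by the ubiquitin ligase Mdm2, which is itself a p53 target, and it accumulates after DNA damage and other stress. It then raises transcription of genes for cell cycle arrest, repair and death. In the mitochondrial pathway of apoptosis, BH3-only proteins tip the balance between the pore-forming proteins Bax and Bak and the survival proteins of the Bcl-2 family. Cytochrome c released from mitochondria assembles with Apaf1 to activate caspase-9, and loss of beta cells by apoptosis is a long-studied feature of diabetes. These steps are largely controlled on protein, which transcript counts do not measure.

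The promoters of several members hold sequences of the kind p53 binds, and 4 are shown because they belong to the classical targets whose levels follow. The p53 decamer is a palindromic consensus of 10 bases, which p53 usually binds as a pair, and both strands were searched in RefSeq promoter windows of GRCm38.p6, from 250 bases before to 50 bases after each start. Capitals mark the decamers, and each stretch is written 5′ to 3′ on the strand of its gene. Only full matches to the consensus were searched, so near matches stay in lower case, also beside a marked decamer. The Cdkn1a stretch is chr17:29090891-29090952 on the plus strand, the Mdm2 stretch chr10:117710920-117710959 on the minus strand, the Ccng1 stretch chr11:40755447-40755486 on the minus strand and the Bax stretch chr7:45467075-45467114 on the minus strand.
Cdkn1a: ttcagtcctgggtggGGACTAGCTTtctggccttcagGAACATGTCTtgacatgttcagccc
Mdm2: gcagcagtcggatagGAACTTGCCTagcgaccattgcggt
Ccng1: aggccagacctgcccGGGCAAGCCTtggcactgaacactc
Bax: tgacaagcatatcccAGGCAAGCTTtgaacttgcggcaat

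The Cdkn1a window at the more upstream start held 2 decamers, beginning 73 and 51 bases before that start, with 12 bases between them. The window at its other start (chr17:29093519-29093818) held 0. In Mdm2, Ccng1 and Bax the single decamer began 186, 185 and 201 bases before the start. Windows were found for 31 of the 36 members, 44 windows in all, of which 10 (22.73%, in 9 genes) held a decamer, against 2745 of 32851 windows of all genes (8.36%). A pair no more than 13 bases apart was found in 1 member window (2.273%), that of Cdkn1a, and in 24 of all windows (0.073%). Member windows also had more G and C, with a median of 64% against 52.67%. The members were listed partly as p53 targets, so a higher share of decamers is no result of these data. The same Aen decamer lies in overlapping windows and is counted in each. These matches describe letters in the windows and are not measured binding.

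Libraries were made with CEL-Seq2, which reads the 3′ end of transcripts, and held 3228648 to 4559561 reads in genes. Levels are given as counts-per-million (CPM) on library sizes scaled with the trimmed mean of M values. Fold changes come from edgeR's quasi-likelihood test fitted on 9739 genes in all 9 libraries, with Benjamini-Hochberg adjustment over those genes, and a gene was called at an adjusted p under 0.05. Endocrine hormone and granule markers (7 of 7 detected) made up 54.6% to 62.1% of gene reads in every library, and acinar enzymes 0.323% to 1.21%. As a reference for the response to glucose, Txnip, a thioredoxin inhibitor induced by glucose, was higher at 35 than at 11.8 mM by 1.90 ± 0.18 (log2 fold change ± SE, adjusted p 2.55e-08). In the same test Dlk1, a membrane protein of endocrine cells, rose by 2.41 ± 0.21 (adjusted p 8.65e-09) and Arrdc4, an arrestin relative of Txnip, by 1.39 ± 0.30 (adjusted p 0.0112), a call lost without replicate 2 at 11.8 mM (0.0657) or replicate 1 at 35 mM (0.0653).

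Most members were rare transcripts. Of the 36, 26 had enough reads to be tested, with medians per library from 11 (Plk2) to 257 (Cdkn1a), and 10 did not pass the filter on low counts. Because a gene can pass that filter through 1 concentration alone, the counts below concern tested members and not the whole list. The plot of reads in every library shows this range.

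**Figure D1:**
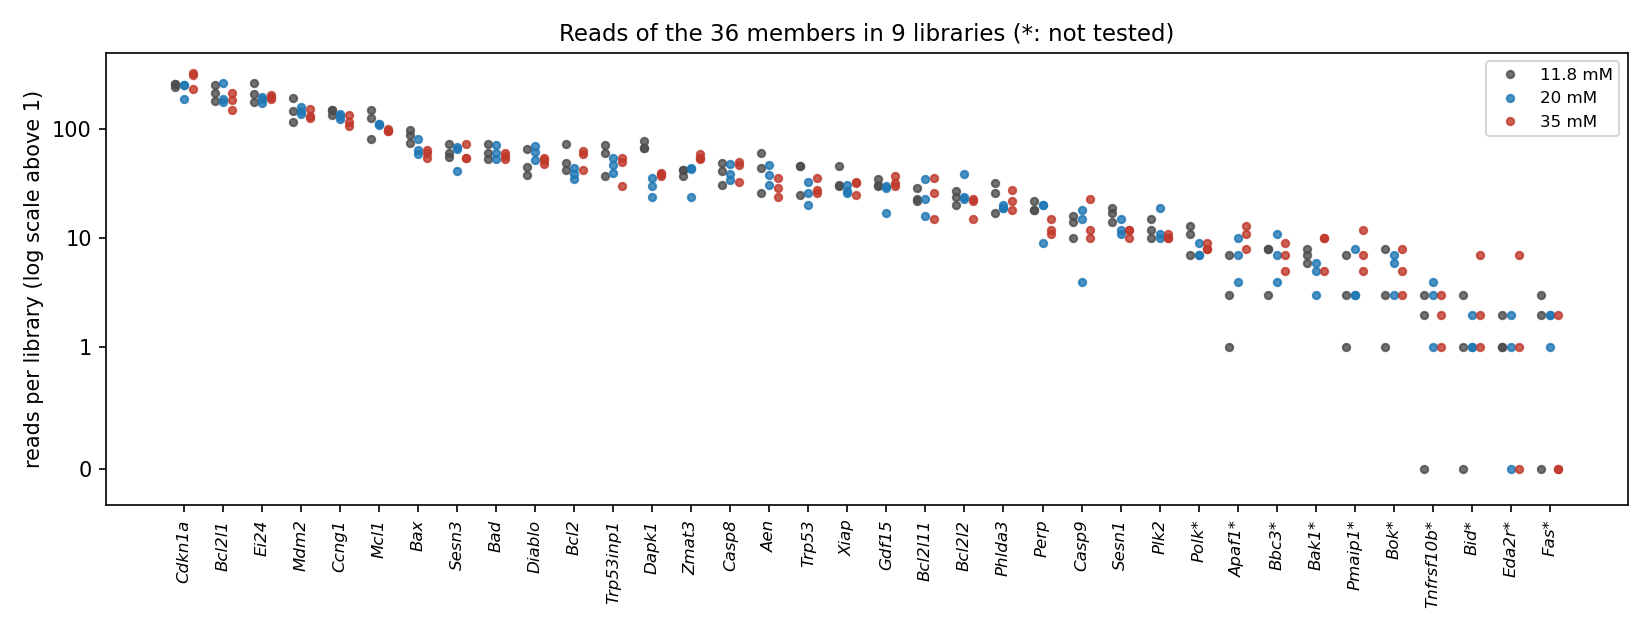
Reads of the 36 members in each of the 9 libraries on a log scale (linear below 1), coloured by glucose concentration, with the 10 untested members starred. Reads run from 191 to 327 for Cdkn1a down to 0 to 3 for Fas.

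At 20 mM against 11.8 mM, 1 of the 26 tested members passed the test, the death-associated kinase Dapk1, which fell. Among all genes 18 of 9739 were called (0.185%), and 0.0308% were called lower. The other 25 members did not pass. Over all 26 tested members, Dapk1 included, 9 log2 fold changes were positive (34.6%, against 49.8% of all genes) and 17 negative. Their median was -0.04 against -0.0016 over all genes. At 35 mM against 11.8 mM the edgeR test called 0 members, where 84 of 9739 genes were called (0.863%), and DESeq2 also called 0. An unadjusted p under 0.05 was reached by 3 members (11.5%), Zmat3 upward and Bax and Dapk1 downward, against 10.5% of all genes, and the members' median was -0.09 against -0.0027 over all genes. At 35 mM against 20 mM both edgeR and DESeq2 called 0 members, where edgeR called 3 genes in all (0.0308%). Here 2 members (7.69%), Cdkn1a and Zmat3, had an unadjusted p under 0.05, against 5.29% of all genes, and 13 changes were positive and 13 negative.

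These intervals limit what could have been missed. At 35 mM the 95% interval of the change from 11.8 mM lay within 2-fold in both directions for 21 of 26 tested members, and within 1.5-fold for 8. At 20 mM the corresponding numbers were 22 and 9. The median interval reached 0.49 to either side on the log2 scale at 35 mM, a factor of 1.40.

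**Figure D2:**
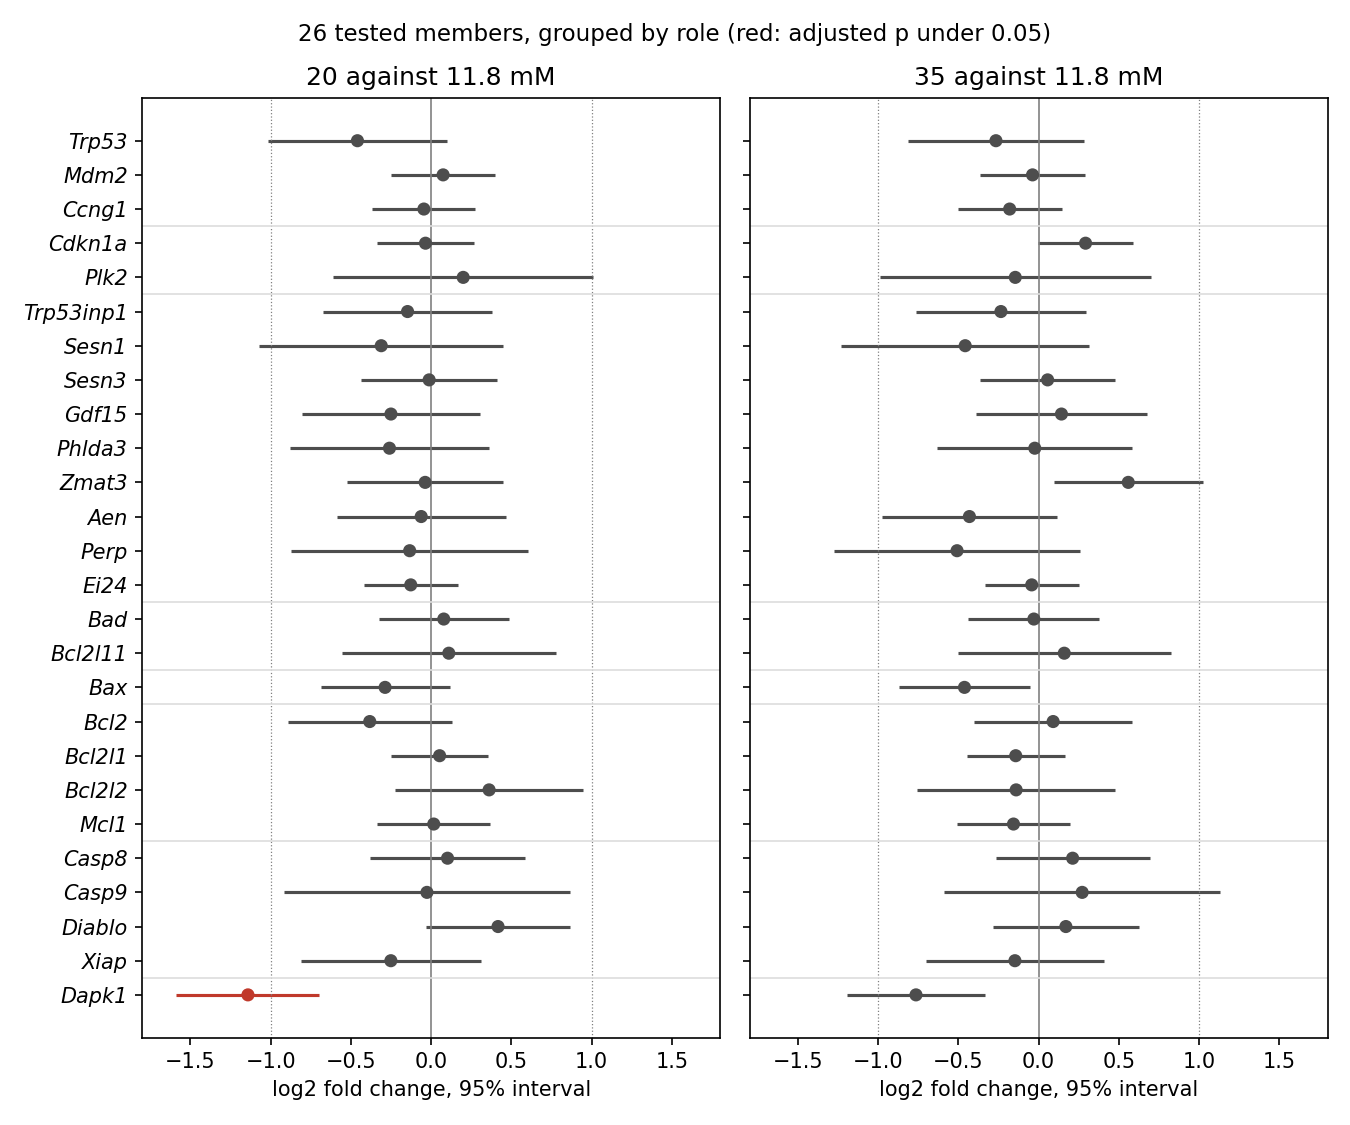
Log2 fold change (points) with its 95% interval (lines) of the 26 tested members at 20 and at 35 mM against 11.8 mM, in order of role, with dotted lines at a 2-fold change and the called gene in red. The interval of Dapk1 lies below 0 in both panels, from -1.59 to -0.70 at 20 mM and from -1.19 to -0.33 at 35 mM.

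Dapk1 encodes a calcium- and calmodulin-regulated serine/threonine kinase that takes part in apoptosis and autophagy. It lies at chr13:60601947-60763191 on the plus strand (GRCm38), and no exon of another gene overlaps its exons. Its level at 11.8 mM was 17.9, 18.1 and 19.5 CPM in replicates 1 to 3, from 67, 78 and 67 reads. At 20 mM it was 7.39, 9.10 and 8.46 CPM, from 24, 36 and 30 reads. At 35 mM it was 10.7, 11.3 and 10.5 CPM, from 40, 39 and 37 reads. The libraries of the 3 concentrations formed separate ranges, highest at 11.8 mM, lowest at 20 mM and between these at 35 mM.

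From 18.5 ± 0.908 CPM (mean ± SD, n = 3), Dapk1 fell to 8.32 ± 0.862 CPM at 20 mM. The log2 fold change was -1.14 ± 0.22 (adjusted p 0.0116, edgeR), or 0.453 times the basal level with a 95% interval of 0.333 to 0.617. At 35 mM it stood at 10.9 ± 0.420 CPM, a change of -0.76 ± 0.21 that did not pass (unadjusted p 0.00104, adjusted p 0.0866, edgeR). The difference between 35 and 20 mM was 0.38 ± 0.23 (adjusted p 0.932, edgeR), so an order of the 2 raised concentrations was not established. Non-overlapping libraries were seen against 11.8 mM in 12.8% of all genes at 20 mM, where Dapk1 was the only such tested member (1 of 26). At 35 mM they were seen in 14.9% of all genes and in Dapk1, Perp and Zmat3 (3 of 26). Between 35 and 20 mM 11.9% of all genes and 4 of 26 tested members, Dapk1 included, did not overlap. The share of genes apart in all 3 comparisons was not computed.

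The call at 20 mM was lost without replicate 3 at 11.8 mM (adjusted p 0.0522, edgeR) or without replicate 1 (0.109) or 3 (0.063) at 20 mM. It was also lost with any 1 of the 3 sets of barcoded sub-libraries removed (0.0636, 0.132 and 0.058). Each such removal also lowered the reads of every sample, and the part of lower depth in the lost call was not tested. The log2 fold change stayed between -1.30 and -1.02 in all 19 alternative settings. Each sample was sequenced as 3 barcoded sub-libraries, numbered here by column order, and a set joins those of equal number. The labels tie equal numbers to no shared batch. The sub-libraries spread widely. Over the 9 sub-libraries at 11.8 mM, Dapk1 ranged from 6.72 to 36.5 CPM with a median of 18.2. At 20 mM the range was 2.20 to 12.1 with a median of 7.64, and at 35 mM 5.73 to 16.6 with a median of 10.8. The sub-libraries of different concentrations therefore overlapped where the summed libraries did not. In replicate 1 at 11.8 mM the sub-libraries held 7, 24 and 36 reads. The coefficient of variation between the summed libraries was 4.91%, 10.4% and 3.87% at 11.8, 20 and 35 mM, below the 11.9%, 18.3% and 16.1% that counting error alone gives for 1 library.

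**Figure D3:**
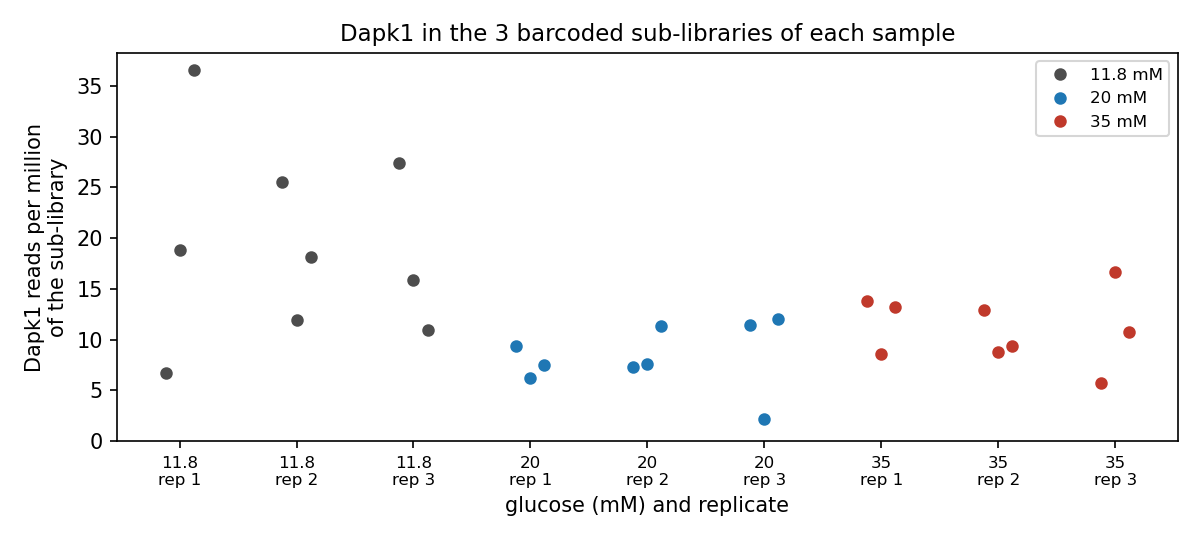
Dapk1 level in CPM (share of the gene reads of the sub-library) in each of the 3 barcoded sub-libraries (points) of the 9 samples, coloured by glucose concentration. At 11.8 mM the points span 6.72 to 36.5, and at 20 mM 2.20 to 12.1.

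Markers of some minor islet cell populations, though not of duct or acinar cells, also had lower medians at the raised concentrations, where Dapk1 was lower. In these bulk samples, fewer cells of a type and less RNA per cell cannot be told apart. The summed level of 10 fibroblast and stellate cell markers was 0.0326% to 0.065% of gene reads at 11.8 mM, 0.0261% to 0.0416% at 20 mM and 0.0269% to 0.0462% at 35 mM. For 10 macrophage and immune markers it was 0.0119% to 0.0152%, 0.0106% to 0.0122% and 0.00913% to 0.0179%, and for 7 endothelial markers 0.00148% to 0.00184%, 0.000836% to 0.00179% and 0.00104% to 0.00109%. Median log2 fold changes at 20 and 35 mM were -0.36 and -0.39 for the tested fibroblast markers, -0.33 and -0.44 for the macrophage markers and -0.62 and -0.95 for the 3 endothelial markers tested. They were 0.08 and 0.09 for the 6 duct markers tested and 0.38 and 0.03 for the 11 acinar markers, and summed duct markers made up 0.0178% to 0.0298%, 0.0227% to 0.0327% and 0.0294% to 0.0358% of gene reads at the 3 concentrations. None of these genes was called. The endothelial markers Kdr and Esm1 had 0 reads in 5 and 4 of the 9 libraries, and the stellate marker Pdgfra in 1. The part of these populations in the Dapk1 result was not tested.

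Transcripts of p53 itself and of its feedback partners did not pass the test at either raised concentration. Trp53 (chr11:69580359-69591873, plus strand) stood at 12.3, 10.6 and 7.28 CPM at 11.8 mM. It stood at 6.16, 6.57 and 9.31 CPM at 20 mM and at 9.66, 8.13 and 7.39 CPM at 35 mM. The 3 ranges overlapped, with changes of -0.46 ± 0.27 at 20 mM (adjusted p 0.717, edgeR) and -0.27 ± 0.27 at 35 mM (adjusted p 0.823). Mdm2, the ligase that both degrades p53 and is induced by it, had 39.4 ± 7.17, 41.6 ± 3.90 and 38.4 ± 2.32 CPM (mean ± SD, n = 3) at 11.8, 20 and 35 mM. Its changes from 11.8 mM were 0.07 ± 0.16 and -0.04 ± 0.16, with a 95% interval at 35 mM of -0.37 to 0.29. Ccng1, cyclin G1, another direct p53 target that acts back on p53, had 38.1 ± 4.61, 36.9 ± 2.98 and 33.5 ± 2.67 CPM, and its interval at 35 mM ran from -0.50 to 0.14. For Mdm2 and Ccng1, which carry a decamer in the sequences above, changes of more than 1.5-fold upward lay outside these intervals.

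The arrest gene Cdkn1a, which encodes the cyclin-dependent kinase inhibitor p21, was the most heavily read member. It lies at chr17:29090976-29100727 on the plus strand. Its level was 69.8, 60.0 and 71.1 CPM at 11.8 mM, 58.8, 64.9 and 71.9 CPM at 20 mM and 87.7, 91.5 and 66.5 CPM at 35 mM. At 35 mM replicates 1 and 2 lay above every other library, whereas replicate 3 lay within the range of the lower concentrations. The change at 35 mM was 0.29 ± 0.15 from 11.8 mM (adjusted p 0.489, edgeR) and 0.33 ± 0.15 from 20 mM (unadjusted p 0.0323, adjusted p 0.932), and at 20 mM it was -0.04 ± 0.15. The coefficient of variation at 35 mM was 16.5%, against 5.85% from counting alone. An exon of the opposite strand gene AC167363.2 overlaps Cdkn1a, and since the counting strand is not given in the sources used here, reads of both genes may be mixed. Plk2, a polo-like kinase induced by p53, had only 2.67 to 4.80 CPM over all libraries and an interval at 35 mM of -0.99 to 0.70.

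Of the 26 tested members Zmat3 had the largest positive change at 35 mM, and it did not pass the test. It encodes an RNA-binding zinc finger protein that p53 induces, and lies at chr3:32334792-32366014 on the minus strand with no overlapping exon. The level was 11.2, 9.72 and 10.8 CPM at 11.8 mM, 7.39, 11.1 and 12.1 CPM at 20 mM and 14.2, 15.7 and 16.8 CPM at 35 mM. All 3 libraries at 35 mM lay above all 6 others, and those at 11.8 and 20 mM overlapped. Libraries at 35 mM lay apart from those at 11.8 mM in 14.9% of all genes, and from those at 20 mM in 11.9%. The share of genes apart from both was not computed. The change of Zmat3 at 35 mM was 0.56 ± 0.23 from 11.8 mM (unadjusted p 0.0199, adjusted p 0.358, edgeR) and 0.60 ± 0.23 from 20 mM (unadjusted p 0.0145, adjusted p 0.905). It rested largely on 1 of the 3 sets of sub-libraries, which are joined by column order only. In that set the samples at 35 mM reached 21.8, 17.3 and 25.4 CPM. With that set removed the change from 11.8 mM was 0.23 and that from 20 mM was -0.018.

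**Figure D4:**
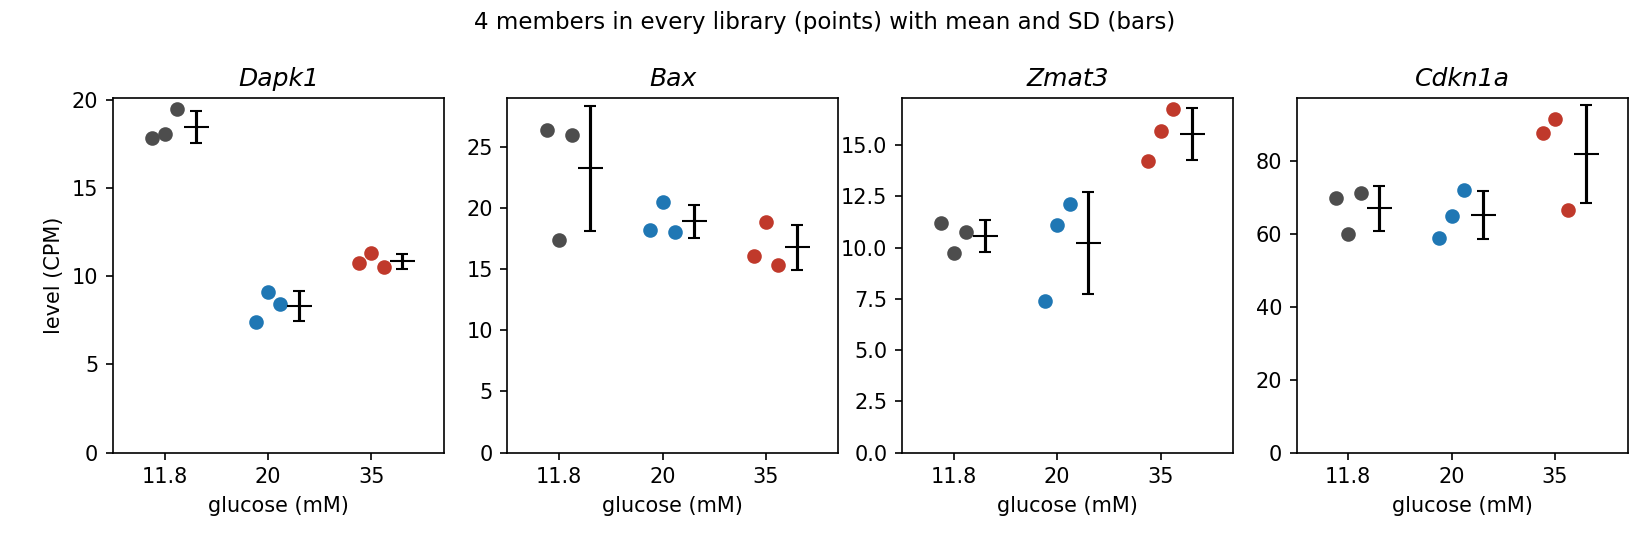
Level in CPM of Dapk1, Bax, Zmat3 and Cdkn1a in every library (points) at 11.8, 20 and 35 mM glucose, with the mean and SD (bars, n = 3). Dapk1 lies lower at both raised concentrations, Zmat3 is higher in all 3 libraries at 35 mM, and the other 2 genes overlap between concentrations.

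The other p53 targets showed no call in any comparison. At 20 mM all 9 tested genes of this group had negative log2 fold changes, from -0.31 (Sesn1) to -0.01 (Sesn3) with a median of -0.13. Among all genes 4890 of 9739 were negative there. Of the tested p53 targets placed in other roles, Mdm2 and Plk2 had positive changes at 20 mM, and Ccng1, Cdkn1a and Bax negative ones. The 9 changes share the 11.8 mM libraries, and several changed sign in an alternative setting, Sesn3 in 5 of 19. At 35 mM 6 of 9 were negative. None of the 9 reached an unadjusted p under 0.05 at 20 mM, where 7.97% of all genes did. Sesn1 and Sesn3, stress-induced regulators of mTORC1 signalling, had means of 4.44 ± 1.15 and 16.4 ± 1.34 CPM in basal medium, and of 3.19 ± 0.442 and 17.1 ± 2.45 CPM at 35 mM (SD, n = 3). Trp53inp1, a stress protein that assists p53 in nuclear bodies, ranged from 8.71 to 20.7 CPM, with means of 14.8 ± 5.47, 13.4 ± 3.11 and 12.5 ± 3.26 at 11.8, 20 and 35 mM.

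Gdf15, a secreted stress cytokine, had 9.33, 7.18 and 8.74 CPM at 11.8 mM, 5.23, 7.58 and 8.18 at 20 mM and 9.93, 8.71 and 9.09 at 35 mM. Its 35 mM libraries lay above those at 20 mM, a lack of overlap seen in 11.9% of all genes and in 4 tested members, with a difference of 0.39 ± 0.27 that did not pass (adjusted p 0.932, edgeR). The changes from 11.8 mM were -0.25 ± 0.27 and 0.14 ± 0.26. Perp, a desmosomal and apoptotic membrane protein, was at 5.86, 4.17 and 5.24 CPM at 11.8 mM and 4.03, 3.19 and 3.41 CPM at 35 mM. As in 14.9% of all genes these ranges did not overlap, but the change of -0.51 ± 0.38 did not pass (adjusted p 0.711, edgeR). Aen, a p53-induced nuclease, stood at 11.1 ± 3.31, 10.8 ± 1.76 and 8.35 ± 1.88 CPM. Phlda3, an inhibitor of Akt, was at 6.43 ± 1.30, 5.42 ± 0.402 and 6.38 ± 1.56 CPM, and Ei24, an endoplasmic reticulum protein, at 57.2 ± 8.19, 52.4 ± 1.83 and 55.5 ± 3.21 CPM. Polk, a translesion DNA polymerase, had 7 to 13 reads per library and was not tested.

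Transcripts of the listed death receptors were barely detected. Fas had 12 reads in all 9 libraries together and 0 in 3 of them, Eda2r had 15 and Tnfrsf10b, the mouse TRAIL receptor, 19. The largest single value was 7 reads of Eda2r in replicate 3 at 35 mM, where the other 8 libraries had 0 to 2. Without replicated counts above a few reads, no difference in these receptors was detectable at this depth. The receptor Tnfrsf1a, outside the listed genes and named after its values were seen, had enough reads to be tested. Its means were 3.77, 3.78 and 4.29 CPM at 11.8, 20 and 35 mM, and it did not pass in any comparison.

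Among the BH3-only genes, which start the mitochondrial pathway, Bbc3 (Puma), Pmaip1 (Noxa) and Bid were too rare to test. Bbc3 had 19, 22 and 21 reads summed over the 3 libraries at 11.8, 20 and 35 mM. Pmaip1 had 11, 14 and 24 reads, and in a fit without the filter its lowest adjusted p over the comparisons was 0.625 (edgeR). Bid had 4, 4 and 10 reads, of which 7 were in 1 library at 35 mM. Bad, which links growth factor signalling to survival, had 16.3 ± 1.90, 17.1 ± 0.956 and 15.9 ± 1.61 CPM, and its interval at 35 mM was -0.44 to 0.38. Bcl2l11 (Bim) had 6.42 ± 0.292, 7.00 ± 2.91 and 7.16 ± 2.72 CPM, with a spread at the raised concentrations from 4.04 to 9.87 CPM.

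Of the pore-forming effectors, Bax was lower at 35 mM without passing the test. It lies at chr7:45461697-45466898 on the minus strand, and a same-strand gene model, Gm45808, overlaps its exons. The level was 26.4, 17.4 and 25.9 CPM at 11.8 mM, 18.2, 20.5 and 18.0 CPM at 20 mM and 16.1, 18.9 and 15.3 CPM at 35 mM. Replicate 2 at 11.8 mM lay among the libraries at 20 and 35 mM, so the ranges overlapped, while the other 2 basal libraries were above all others. The change was -0.29 ± 0.20 at 20 mM (adjusted p 0.774, edgeR) and -0.46 ± 0.20 at 35 mM (unadjusted p 0.0275, adjusted p 0.398). The coefficient of variation at 11.8 mM was 21.9%, against 10.7% from counting. Bak1 had 21, 14 and 25 reads summed per concentration and Bok 12, 16 and 16, and neither was tested.

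The survival genes of the Bcl-2 family did not pass the test in any comparison. Bcl2l1 (Bcl-xL) had 56.5 ± 3.04, 58.5 ± 8.02 and 51.2 ± 7.66 CPM at 11.8, 20 and 35 mM, and its interval at 35 mM ran from -0.45 to 0.16. Mcl1, a short-lived survival protein, had 30.7 ± 5.88, 31.2 ± 3.35 and 27.6 ± 0.533 CPM. Bcl2 itself was at 19.5, 9.72 and 14.3 CPM at 11.8 mM, 13.5, 9.85 and 9.87 CPM at 20 mM and 15.8, 12.2 and 17.9 CPM at 35 mM. These ranges overlapped, with a change of 0.47 ± 0.25 from 20 to 35 mM (adjusted p 0.932, edgeR) and of 0.09 ± 0.24 from 11.8 to 35 mM. Bcl2l2 (Bcl-w) had 7.08, 9.85 and 6.77 CPM at 20 mM and 5.90, 4.36 and 6.53 CPM at 35 mM. The libraries of these 2 concentrations did not overlap, as in 11.9% of all genes, and the difference of -0.50 ± 0.30 did not pass (adjusted p 0.932, edgeR). Exons of Bcl2l2 overlap those of the same-strand gene model Gm20521.

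In caspase activation, the adaptor Apaf1 (chr10:90989311-91082770, minus strand) had 7, 3 and 1 reads at 11.8 mM, 4, 10 and 7 at 20 mM and 11, 8 and 13 at 35 mM. The libraries at 35 mM lay above those at 11.8 mM, a lack of overlap seen in 14.9% of all tested genes. Apaf1 itself was below the filter. In a fit without the filter its lowest unadjusted p over the comparisons was 0.0078 and its lowest adjusted p 0.273 (edgeR). Diablo (Smac), which frees caspases from inhibition, was at 10.1, 15.3 and 13.1 CPM at 11.8 mM and 21.6, 15.7 and 14.7 CPM at 20 mM, a difference of 0.42 ± 0.22 (adjusted p 0.657, edgeR) with 1 library at 20 mM inside the basal range. Xiap, the inhibitor that Diablo binds, had 9.39 ± 2.60, 7.90 ± 1.45 and 8.46 ± 1.52 CPM. Casp8, the initiator of the receptor pathway, had 10.4 ± 1.23, 11.2 ± 1.43 and 12.1 ± 2.20 CPM. Casp9, the initiator of the mitochondrial pathway, ranged from 1.23 to 6.17 CPM, and its exons overlap the opposite-strand acinar genes Cela2a and Ctrc, so reads of those genes may be included. Overlaps of exons with an opposite-strand gene were found for 8 members in all, and with a same-strand gene for 3.

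Further genes of the same pathways gave 1 call. Of 25 other p53 targets, 17 were tested, and at 35 mM 1 fell, 0 rose and 16 did not pass, beside the 0.863% of all genes called there. That gene was Btg2, an antiproliferative target, which fell from 35.3 to 20.6 CPM (-0.77 ± 0.19, adjusted p 0.0444, edgeR). It passed in 7 of 19 alternatives, and its call was lost when replicate 3 at 11.8 mM (adjusted p 0.358) or any 1 library at 20 mM (0.0521 to 0.0564) or 35 mM (0.0851 to 0.206) was left out. In the other direction 2 genes, named after their values were seen, had an unadjusted p under 0.05 at 35 mM, namely Rps27l, a ribosomal protein paralog (0.42 ± 0.16, adjusted p 0.313, edgeR), and Pml, the organizer of nuclear bodies (0.59 ± 0.26, adjusted p 0.414). Over all genes 10.5% reached an unadjusted p under 0.05 at 35 mM, in either direction. The list's median was -0.08 at 20 mM and -0.04 at 35 mM.

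Of 20 regulators of p53, 15 were tested and 0 were called by edgeR in any comparison. At 35 mM 2 of 15 had an unadjusted p under 0.05, near the 10.5% of all genes, the damage-sensing kinase Atr (-0.81 ± 0.32, from 8.28 to 4.81 CPM, adjusted p 0.344) and the p53 inhibitor Mdm4 (-0.62 ± 0.30, from 9.49 to 6.14 CPM, adjusted p 0.466). The list's median was -0.10 at 20 mM and -0.17 at 35 mM, and Cdkn2a and Trp73 had 0 reads in every library. Of 34 further genes of the apoptotic machinery 25 were tested and 0 were called by edgeR. Cycs, cytochrome c, had 207, 302 and 295 CPM at 11.8, 20 and 35 mM. Its differences from 11.8 mM were 0.54 ± 0.13 (adjusted p 0.094, edgeR) and 0.51 ± 0.13 (adjusted p 0.0606). At 20 and 35 mM its libraries did not overlap those at 11.8 mM, as in 12.8% and 14.9% of all genes. Cycs passed in 3 of 19 alternatives at either concentration. Bnip3l, a mitophagy receptor, had a change at 35 mM of -0.38 ± 0.18 (adjusted p 0.466, edgeR). The list's median was -0.03 at 20 mM and -0.07 at 35 mM.

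All 7 genes of death under endoplasmic reticulum stress were tested and 0 were called by edgeR, with medians of -0.18 at 20 mM and -0.03 at 35 mM. At 35 mM 1 of 7 had an unadjusted p under 0.05, near the 10.5% of all genes, namely Chac1, a glutathione-degrading enzyme, which had 47.8 and 61.9 CPM at 11.8 and 35 mM (0.37 ± 0.16, adjusted p 0.387, edgeR).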

How the data were processed

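Libraries were made by CEL-Seq2 from 3 ng of RNA, with 15 bases of read 1 and 52 bases of read 2, per the labels' protocols. The deposited values are whole-number read counts per gene and sub-library, which the authors obtained using cutadapt, TopHat, HTSeq and the GRCm38.p4 build. These names come from the submitters' processing notes, as does DESeq2. Tool versions, the annotation and the strand used in counting: not given in the sources used here. Reads had not been collapsed by molecular identifier: 16 genes exceeded the 4096 possible identifiers in a sub-library, so that measures of depth cover counting error only.

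The 27 sub-libraries were summed to 9 libraries through the deposited sample sheet. Another 30 columns, in 2 further tables, matched no sample label and were not used. From the table, 92 spike-ins and 5 summary lines (19.6% to 29.9% of counted reads) were left out. Symbols and coordinates came from GENCODE M21, which matched 21781 of 22048 identifiers. Promoter windows came from a RefSeq table of GRCm38.p6.

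Tests used R 4.3.3 and edgeR 4.0.16 (TMM, filterByExpr by group, robust quasi-likelihood fit, a mean per concentration, 6 residual degrees of freedom, Benjamini-Hochberg over 9739 genes, threshold 0.05). DESeq2 1.42.0 was an alternative. The script was tested on simulated data. An exact test of 3 libraries against 3 cannot go below 0.1, so calls rest on spread shared across genes. Same-numbered replicates were checked for pairing (closing section).

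The genes, lists and alternatives were chosen with earlier results of these data known. Members with an unadjusted p under 0.05 in any comparison are given by library, the others by values or range. From each further list the called genes, or else at most the 2 of smallest p at 35 mM, are named, together with 3 reference genes.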

Additional observations from a re-analysis of the deposited data

How the results depend on the processing

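Dapk1 at 20 mM passed in 13 of 19 alternatives (adjusted p 0.00274 to 0.132). The number of members called there, 1 as reported, was 0 to 1 when 1 library was left out and 0 with sub-library set 1 (Dapk1 -1.16, adjusted p 0.0636), 2 (-1.02, 0.132) or 3 (-1.30, 0.058) removed. Removal of these sets was added after the spread of Dapk1 between sub-libraries had been seen. At 35 mM, against either lower concentration, no member was called in any of the 19, the lowest adjusted p of Dapk1 being 0.0591. Of 78 member changes, 41 changed sign in at least 1 alternative, among them Zmat3 at 35 against 20 mM, at -0.018 (adjusted p 1) with set 3 removed.

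Over all genes, the 18 called at 20 mM became 51 without the filter, 34 with DESeq2, 11 with only the 2 concentrations fitted, 11 with set 2 removed and 7 to 35 with 1 library left out. The 84 called at 35 mM became 148 without the filter, 39 with set 3 removed and 41 to 138 with 1 library left out. The 3 called between 35 and 20 mM became 5 with set 1 removed, 1 with set 3 removed and 1 to 7 with 1 library left out. The cause of these shifts was not tested.

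With a replicate block, 1, 0 and 0 members and 13, 74 and 3 genes were called in the 3 comparisons, Dapk1 at 20 mM having an adjusted p of 0.0272. No pairing by number was seen. Deviations of same-numbered libraries correlated at -0.157 to 0.046 over 9 pairs, and those of differently numbered libraries at -0.166 to 0.174. For 0 of 9 libraries was the own number the best match at both other concentrations. With 3 libraries per concentration, this check cannot decide whether same-numbered samples shared an origin.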

Other observations

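Casp6, an executioner caspase outside the listed genes that was singled out after its values were seen, had mean levels of 9.46, 13.6 and 9.44 CPM at 11.8, 20 and 35 mM. It was 0.51 ± 0.24 higher at 20 than at 11.8 mM (unadjusted p 0.0454, adjusted p 0.609, edgeR) and -0.51 ± 0.25 at 35 against 20 mM (unadjusted p 0.0463, adjusted p 0.932), so neither difference passed. Both differences share the 20 mM libraries. Of the 25 tested genes of its list, 2 rose and 1 fell at 20 mM with an unadjusted p under 0.05, which 7.97% of all genes reached. The 1 that fell was Dffa, from 18.9 to 12.9 CPM (-0.54 ± 0.22, unadjusted p 0.0206, adjusted p 0.502, edgeR).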
